A study of Homo sapiens with 6 samples.

Results

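The heat shock factors HSF1, HSF2 and HSF4 and the heat shock factor binding protein HSBP1 were followed in 12Z cells, an immortalised human endometriotic line, given a Myrrh extract or its vehicle. The 4 genes were taken by symbol from tables of 60419 genes, and each symbol matched 1 gene. HSF1 and HSF2 RNA rose, HSF4 RNA fell, and HSBP1 RNA was not called changed. The 3 Myrrh libraries came from cells given 100 µg/mL Myrrh extract in DMSO for 12 h. The 3 DMSO libraries came from cells given DMSO alone, for a time that the labels do not state separately. Both groups were wild type cells of the same line, kept in medium with 10% charcoal-stripped serum, and 1.5 µg of total RNA entered each library. The labels do not say whether the 3 libraries of a group came from separate cultures, so the p-values measure the spread between these libraries, which may be technical.

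HSF1, HSF2 and HSF4 are transcription factors that bind heat shock elements, arrays of inverted GAA repeats, as trimers. In unstressed cells HSF1 is held inactive by the HSP90 and HSP70 chaperones. When unfolded proteins draw those chaperones away it trimerises, is phosphorylated and switches on chaperone genes, so that much of its control lies in the protein and not in its RNA. HSF2 is a short-lived protein known from development that can form mixed trimers with HSF1. HSF4 is best known from the lens, where mutations in its gene cause cataract. It lacks the carboxy-terminal coiled coil that helps to keep HSF1 monomeric. HSBP1 is a small coiled-coil protein that binds the trimerisation domain of HSF1 and dampens its activity.

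Sequences around the starts of 2 members and of 1 heat shock target are shown here to place the motifs discussed with the results. They are RefSeq windows on GRCh38.p14, from 250 bases before to 50 bases after a gene's start, given 5′ to 3′ on the gene's strand. Capitals mark exact matches to GAANNTTC or TTCNNGAA, the inverted pairs at the core of a heat shock element, or to CACGTG, an E box. Each motif reads the same on both strands, and no matches overlapped in these windows. HSF2 lies at chr6:122399301-122399600, plus strand, HSF4 at chr16:67164495-67164794, plus strand, and HSPA1A, the inducible HSP70 gene, at chr6:31815293-31815592, plus strand.
HSF2: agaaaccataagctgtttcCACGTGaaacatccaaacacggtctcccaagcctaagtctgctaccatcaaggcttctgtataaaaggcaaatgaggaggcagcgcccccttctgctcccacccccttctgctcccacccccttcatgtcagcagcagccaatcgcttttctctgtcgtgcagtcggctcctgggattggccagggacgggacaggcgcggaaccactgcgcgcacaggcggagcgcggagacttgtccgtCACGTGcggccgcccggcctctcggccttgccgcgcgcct
HSF4: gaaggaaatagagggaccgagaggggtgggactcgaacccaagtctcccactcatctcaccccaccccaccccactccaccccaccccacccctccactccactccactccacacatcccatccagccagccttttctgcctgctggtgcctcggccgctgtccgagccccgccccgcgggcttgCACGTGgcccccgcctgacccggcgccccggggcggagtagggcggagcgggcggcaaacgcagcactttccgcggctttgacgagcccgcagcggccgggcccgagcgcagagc
HSPA1A: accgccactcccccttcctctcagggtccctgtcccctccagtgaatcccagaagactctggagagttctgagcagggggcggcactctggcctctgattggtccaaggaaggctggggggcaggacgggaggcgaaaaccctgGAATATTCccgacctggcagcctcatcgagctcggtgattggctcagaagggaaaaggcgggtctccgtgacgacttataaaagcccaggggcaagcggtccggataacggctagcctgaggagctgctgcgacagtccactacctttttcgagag

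The HSPA1A window held 1 inverted pair, 106 bases before the start. Of the 27 HSF1 target genes listed, 24 had a window, and 17 of these (70.8%) held at least 1 inverted pair. Among all 27305 genes with a window, 4417 (16.2%) did. None of the windows found for HSF2, HSF4 or HSBP1 held either pair, which 13.5% of all 35116 windows held. Motifs at the start of HSF1 are not reported here. The HSF2 window shown held CACGTG 231 bases before and 10 bases after its start, and the HSF4 window held it 65 bases before the start. A second HSF2 window, with a later start, held CACGTG 91 bases before that start, which is the downstream match of the window shown. CACGTG occurred in 7.26% of all windows. The HSBP1 window, and a further HSF4 window that lies inside the neighbouring gene FBXL8, held none of the 3 motifs. A match is a description of the letters in the window and not of binding.

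Library depth was 22454783 to 24531493 estimated counts in Myrrh and 22592816 to 27588151 in DMSO. Mitochondrially encoded RNA took 6.84% to 8.45% of the counts in Myrrh libraries, against 14.0% to 14.7% in DMSO libraries. After a filter on low counts, 16395 genes were tested, all 4 members among them, and 78.4% of the genes tested were called at an adjusted p under 0.05. In edgeR's quasi-likelihood test 39.3% were called higher and 39.1% lower in Myrrh, and the median log2 fold change was -0.02. The 5 epithelial markers summed to 1218 to 1347 CPM (counts scaled to library size) in Myrrh and 1740 to 1830 CPM in DMSO, most of it KRT8 and KRT18, with CDH1 near 0 in both. EPCAM, another of the 5, was higher, at 2.28 CPM in Myrrh and 1.04 CPM in DMSO. The 5 stromal markers summed to 2800 to 2968 CPM in Myrrh and 8619 to 8954 CPM in DMSO, and all 5 were called lower. COL1A1, 1 of these, was at 762 CPM in Myrrh and 5725 CPM in DMSO. The 3 leukocyte markers summed to 50.9 to 63.2 CPM in Myrrh and 31.6 to 32.5 CPM in DMSO, nearly all of it CD68, which rose. PTPRC, the pan-leukocyte marker, was lower, at 0.074 CPM in Myrrh and 0.584 CPM in DMSO, and CD3E was at 0. The 3 endothelial markers stayed under 1 CPM in every library. The part of these shifts in the members' results was not tested. All libraries came from the same cell line, so these sums are levels of marker RNA and not counts of cell types. In bulk RNA, a changed mix of cells within the line and changed RNA per cell cannot be told apart.

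Against this background, 3 of the 4 members were called, 2 higher and 1 lower, and the 4 differed widely in the size of their change. A share of 3 in 4 is close to the 78.4% called among all genes tested. The CPM of the 2 groups did not overlap for the same 3 members, while 80.3% of all genes tested were also without overlap. The size of the change separated the members: 3.94% of the genes tested changed more than HSF4 in either direction, against 47.5% for HSF1, 70.9% for HSF2 and 98.3% for HSBP1.

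**Figure D1:**
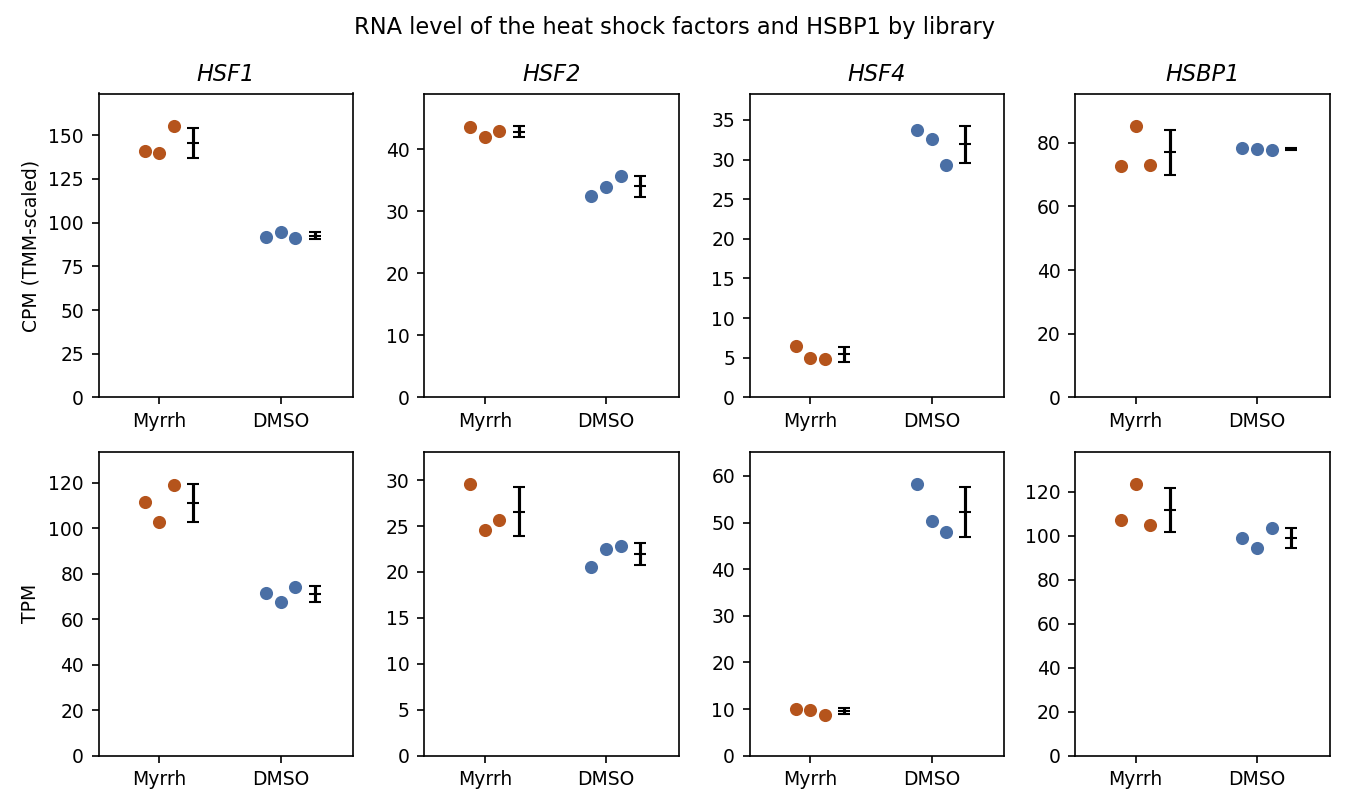
RNA level of each member in the 3 Myrrh and 3 DMSO libraries, as TMM-scaled CPM (upper row) and as TPM from the deposited log2(TPM+1) values (lower row). Points are libraries, and the bar beside them is the mean ± SD (n = 3); every axis starts at 0. The Myrrh points lie above the DMSO points for HSF1 and HSF2 and below them for HSF4, and HSBP1 overlaps in CPM.

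HSF1, the factor that drives the heat shock response in most cells, rose 1.57-fold (95% confidence interval 1.46 to 1.69). It is annotated on GRCh38 at chr8:144291591-144314722 on the plus strand, with 14 transcripts, 3 of them protein-coding. The 3 Myrrh libraries held 140.8, 140.1 and 155.3 CPM, against 92.0, 94.8 and 91.1 CPM in the 3 DMSO libraries. The groups did not overlap, and the third Myrrh library was the highest of the 6. In the authors' TPM, which also corrects for transcript length, HSF1 stood at 111.53, 102.70 and 119.16 in Myrrh, against 71.69, 67.48 and 74.08 in DMSO. The groups did not overlap in TPM either, and the third Myrrh library was again the highest. The log2 fold change was 0.65 ± 0.05 (SE), with an adjusted p of 1.08e-11 in edgeR's quasi-likelihood test, Benjamini-Hochberg adjusted across the 16395 genes. It stayed called in all 14 alternative settings, between 0.51 and 0.68.

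HSF2, the short-lived partner of HSF1, rose 1.26-fold (95% confidence interval 1.15 to 1.37). The gene lies at chr6:122399546-122433119 on the plus strand, with 3 protein-coding transcripts. Its level was 43.7, 41.9 and 43.0 CPM in Myrrh, against 32.4, 34.0 and 35.8 CPM in DMSO. In TPM it was 29.54, 24.53 and 25.63 in Myrrh, against 20.56, 22.48 and 22.82 in DMSO. The groups were separate in both units, with the second Myrrh library closest to the DMSO range in each. The estimated counts before scaling overlapped, at 1042, 936 and 916 in Myrrh and 770, 979 and 992 in DMSO. The log2 fold change was 0.33 ± 0.06 (SE), with an adjusted p of 2.01e-05 in the same edgeR test. The size depended on the scaling: without scaling factors it was 0.19 with an adjusted p of 0.00954, and with upper-quartile factors it was 0.21, where the median of all genes moved to -0.16 and -0.14.

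HSF4, the lens factor, fell 5.85-fold and was the member with the largest change. It lies at chr16:67164681-67169945 on the plus strand, with 25 annotated transcripts, 8 of them protein-coding. The Myrrh libraries held 6.49, 4.98 and 4.80 CPM, against 33.8, 32.6 and 29.3 CPM in DMSO. These came from 154.92, 111.05 and 102.18 estimated counts in Myrrh and 802.64, 940.63 and 814 in DMSO. The 3 Myrrh libraries were all far below the 3 DMSO libraries, and the first Myrrh library was the highest of its group. In TPM the level was 9.95, 9.85 and 8.80 in Myrrh, against 58.19, 50.42 and 48.06 in DMSO. The log2 fold change was -2.55 ± 0.10 (SE, 95% confidence interval -2.75 to -2.35), with an adjusted p of 1.33e-17 in edgeR's quasi-likelihood test. Of all genes tested, 2.89% had a lower fold change. It stayed called in all 14 alternative settings, between -2.70 and -2.33. Sums with neighbouring models, which are another quantity, are given with the neighbours below.

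HSBP1, the binding protein, was not called, and its direction depended on the unit and the scaling. It lies at chr16:83807843-83819737 on the plus strand, with 4 transcripts, 2 of them protein-coding. It had 72.7, 85.2 and 72.9 CPM in Myrrh, against 78.2, 78.1 and 77.8 CPM in DMSO. The DMSO values lay inside the Myrrh range, and the second Myrrh library stood above the other two. The log2 fold change was -0.02 ± 0.06 (SE), with an adjusted p of 0.75 in edgeR's quasi-likelihood test. Its 95% confidence interval, in fold, ran between 0.907 and 1.07, below the 1.26-fold of HSF2. In the authors' TPM the groups did not overlap, at 107.36, 123.44 and 105.06 in Myrrh and 98.85, 94.33 and 103.64 in DMSO. Limma on log2(TPM+1) gave a log2 fold change of 0.17 with an adjusted p of 0.0399. Without scaling factors edgeR gave -0.16 with an adjusted p of 0.0123, a value equal to the median of all genes in that setting, and over all 14 alternatives the adjusted p ran between 0.0123 and 0.896. The estimated count per unit of TPM, which follows the length RSEM assigns to the gene, was lower for HSBP1 in Myrrh by 0.14 (log2, relative to the library's median gene). Such a shift was not particular to HSBP1. It was larger in either direction for 24.8% of 11977 genes, and HSF2 was higher by 0.12. The part of this shift in the HSBP1 result was not tested.

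**Figure D2:**
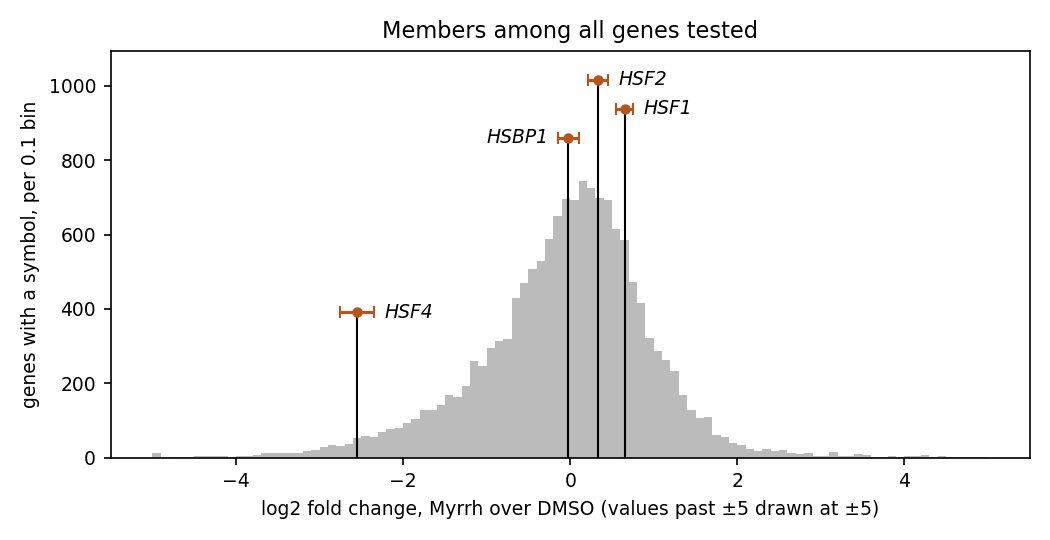
Log2 fold changes (Myrrh over DMSO) of the tested genes that have a symbol, in bins of 0.1 (grey), with the 4 members marked by lines that end in a point and its 95% confidence interval. HSF1 at 0.65 and HSF2 at 0.33 stand within the bulk of the genes, HSBP1 at -0.02 near its centre, and HSF4 at -2.55 in the lower tail; line heights carry no value.

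Compared per length, HSBP1 and HSF1 were the most abundant members in Myrrh, at 112 ± 10.0 and 111 ± 8.24 TPM (SD, n = 3), which do not differ beyond their spread. HSF2 followed at 26.6 ± 2.63 TPM and HSF4 at 9.53 ± 0.637 TPM. In DMSO HSBP1 had 98.9 ± 4.66 TPM, HSF1 71.1 ± 3.34 TPM, HSF4 52.2 ± 5.30 TPM and HSF2 22.0 ± 1.22 TPM, with no overlap between neighbours in that order. In TPM HSF2 was above HSF4 in every Myrrh library and below it in every DMSO library. In CPM, which does not correct for length, DMSO libraries held 32.4, 34.0 and 35.8 for HSF2 and 33.8, 32.6 and 29.3 for HSF4. The order of HSF2 and HSF4 in DMSO thus depended on the unit.

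The summed TPM of the 3 factors was 147 ± 8.88 in Myrrh and 145 ± 5.04 in DMSO (SD, n = 3), and its make-up differed. HSF1 made up 73.9%, 74.9% and 77.6% of that sum in the Myrrh libraries, against 47.7%, 48.1% and 51.1% in the DMSO libraries. HSF4 made up 6.59%, 7.19% and 5.73% in Myrrh, against 38.7%, 35.9% and 33.2% in DMSO. HSF2 made up 19.6%, 17.9% and 16.7% in Myrrh, against 13.7%, 16.0% and 15.7% in DMSO. HSF1 was the majority of the factor RNA in every Myrrh library and at 51.1% or less in DMSO. These shares are a description, since a rise in one lowers the others. They rest on TPM, and so on the length assigned to each gene.

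**Figure D3:**
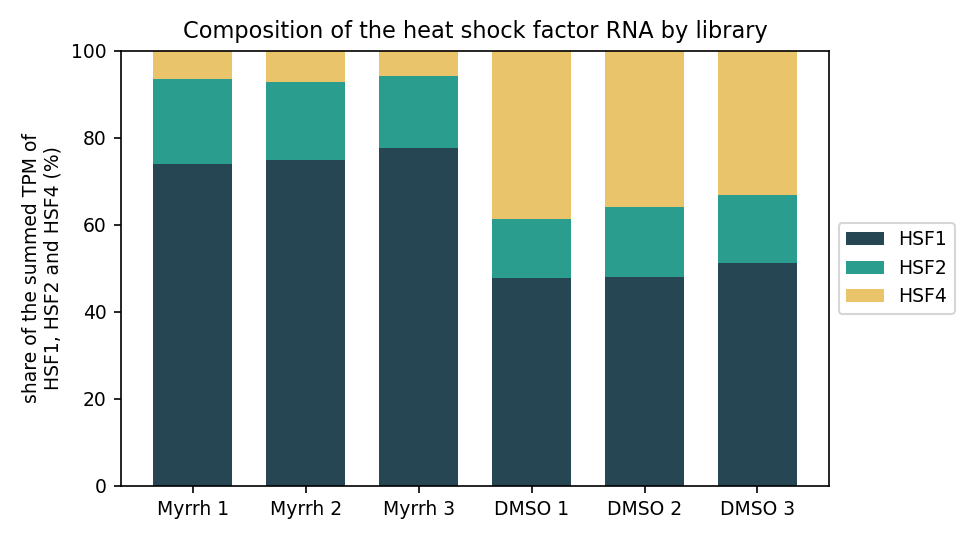
Share of the summed TPM of HSF1, HSF2 and HSF4 taken by each factor, in percent, in the 3 Myrrh libraries (left) and the 3 DMSO libraries (right). HSF4 takes 5.73% to 7.19% in Myrrh and 33.2% to 38.7% in DMSO.

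Ratios within a library do not depend on how libraries are scaled, so all 6 pairs of members were compared on log2 TPM. With 3 libraries against 3, the smallest p an exact permutation test can give is 0.1. HSF1 relative to HSF4 was 3.54 ± 0.19 in Myrrh and 0.45 ± 0.16 in DMSO (log2 ratio, SD), a difference of 3.09. HSF2 relative to HSF4 was 1.48 ± 0.14 in Myrrh and -1.25 ± 0.22 in DMSO, a difference of 2.72. HSF4 relative to HSBP1 was -3.55 ± 0.11 in Myrrh and -0.93 ± 0.17 in DMSO, a difference of -2.63. HSF4 thus shifted against each of the other members. HSF1 relative to HSF2 differed by 0.37, at 2.07 ± 0.15 in Myrrh and 1.70 ± 0.11 in DMSO. HSF1 relative to HSBP1, the activator against its inhibitor, was -0.01 ± 0.23 in Myrrh and -0.48 ± 0.01 in DMSO, a difference of 0.47. These 5 ratios did not overlap between the groups, and each reached p = 0.1 in the two-sided exact permutation test, or 0.12 adjusted over the 6 pairs. HSF2 relative to HSBP1 was -2.08 ± 0.24 in Myrrh and -2.17 ± 0.10 in DMSO, which overlapped (exact permutation p = 0.6). That last difference of 0.10 became 0.36 on estimated counts and -0.01 without the first Myrrh library.

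Because HSF4 sits close to other genes on its strand, those neighbours were examined with it, and they fell by differing amounts. TRADD, on the opposite strand, had a log2 fold change of -0.18 and is given below. FBXL8, an F-box gene, ends 110 bases before HSF4 starts, and the gene model AC074143.1 overlaps both FBXL8 and the first 1135 bases of HSF4. FBXL8 had 68.51, 27.71 and 47.46 estimated counts in Myrrh, against 230.77, 289.03 and 285.31 in DMSO. Its log2 fold change was -2.23 ± 0.18 (SE), with an adjusted p of 3.31e-09 in edgeR's quasi-likelihood test. AC074143.1 had 22.58, 26.23 and 25.36 estimated counts in Myrrh, against 169.59, 230.35 and 187.69 in DMSO, and fell by 2.73 ± 0.17 on the log2 scale. Reads of these 3 models cannot be separated with certainty where they overlap. In sums chosen after the data were seen, the counts of both added to HSF4 gave a log2 fold change of -2.51 ± 0.09, and AC074143.1 alone gave -2.58 ± 0.09. Most of the summed counts were those of HSF4, and both added models had already been seen to fall. The sums therefore could hardly come out otherwise and are no further test of the locus. The share of HSF4 itself in the fall cannot be told apart from how reads were divided among the 3 models. NOL3, an inhibitor of apoptosis that starts 208 bases after HSF4 ends, fell by 0.66 ± 0.06, to 28.5 ± 1.33 CPM in Myrrh against 45.0 ± 1.35 CPM in DMSO (SD, n = 3).

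Within 100 kb of HSF4, a window chosen after the data were seen, 15 other genes were tested, of which 3 rose, 9 fell and 3 were not called. Among all genes tested, 78.4% were called, 39.3% higher and 39.1% lower. The median log2 fold change of the 15 genes was -0.66 and their range -2.87 to 1.32. KIAA0895L, 1 of these, fell by 2.87 ± 0.07 (SE), more than HSF4. TMEM208 rose by 1.32 and CBFB, which encodes a core-binding factor subunit, rose by 0.34. E2F4 (0.10), C16orf70 (-0.04) and B3GNT9 (-0.10) stood near 0. The genes around HSF4 thus differed among themselves in direction and size.

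**Figure D4:**
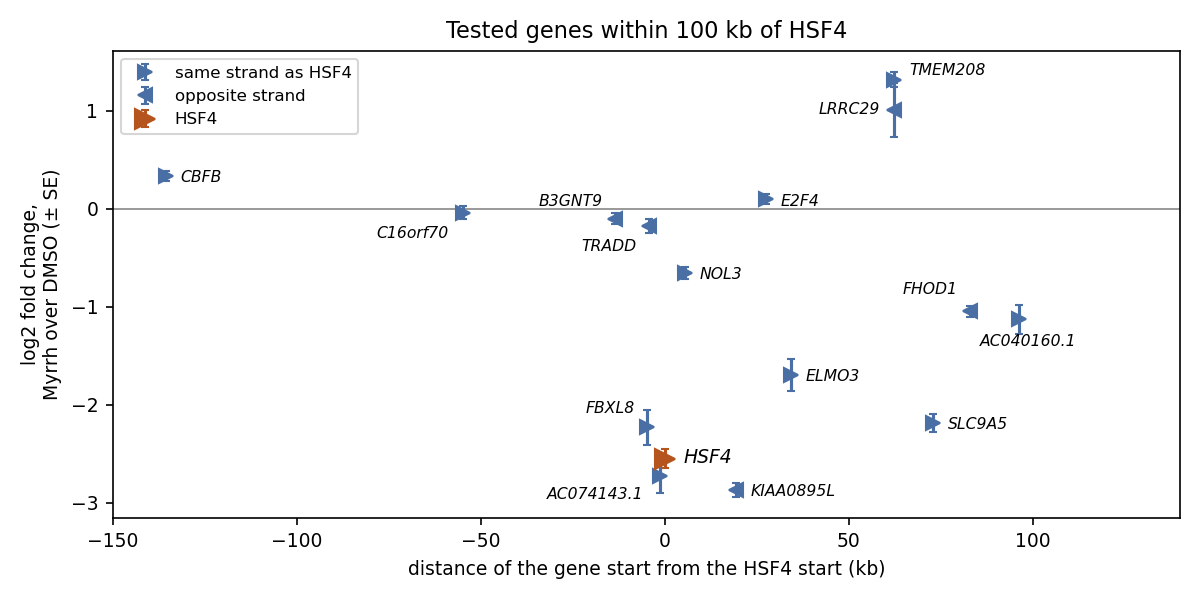
Log2 fold change (Myrrh over DMSO, ± SE) of the tested genes within 100 kb of HSF4, by the distance of each gene's start from that of HSF4 in kb. Triangles point right for genes on the strand of HSF4 and left for the opposite strand. HSF4 (-2.55), FBXL8 (-2.23), AC074143.1 (-2.73) and KIAA0895L (-2.87) lie lowest, while TMEM208 (1.32) lies highest.

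Genes beside the other members were examined in the same way. BOP1, a ribosome biogenesis gene, starts 220 bases from HSF1 on the opposite strand. It had 55.0 ± 4.98 CPM in Myrrh and 38.8 ± 1.19 CPM in DMSO (SD, n = 3), a log2 fold change of 0.50 ± 0.06 (SE) that was -0.07 by limma on log2(TPM+1). DGAT1, which makes triglycerides, overlaps HSF1 by 139 bases on the opposite strand and had a log2 fold change of 0.07 ± 0.07, which was not called and was below 0 under 3 other settings. Whether counting used strand is not known from the labels, so reads from that overlap cannot be told apart. The antisense model AC233992.1 was near 0 and MIR6848 was at 0. Within 100 kb of HSF1, 3 of 11 genes tested rose and 6 fell, beside 39.3% and 39.1% of all genes tested.

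Z99129.4, an uncharacterised model that ends 3669 bases past HSF2 on the opposite strand, had 135, 164 and 132 estimated counts in Myrrh, against 356, 355 and 354 in DMSO. Its log2 fold change was -1.06 ± 0.11 (SE), opposite in sign to that of HSF2. Beside HSBP1, the antisense gene CDH13-AS2 starts 8 bases away and had a log2 fold change of 0.22 ± 0.07, whose call was lost in 5 settings. TRADD, an adaptor of death receptors 4382 bases from HSF4, had a log2 fold change of -0.18 ± 0.07, whose call was lost in 6 settings.

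Genes known to act on or with the factors were counted in lists, shown beside the 39.3% and 39.1% of all genes tested that were called higher and lower. All 17 chaperones that bind HSF1 rose, and their median was 1.28 on the log2 scale against -0.02 for all genes. HSPA1A rose by 6.06 ± 0.07 (SE), HSPA1B by 6.02 ± 0.07 and DNAJB1, their HSP40 partner, by 5.52 ± 0.07. HSPA1A and HSPA1B are near-identical copies that share reads, so the split between them is uncertain. All 27 HSF1 target genes of heat shock rose as well (median 2.46), and several belong to both lists. The rise of HSF1 RNA, 0.65, lay below the fitted value of each of the 27 targets, the least of which was HSPA1L at 0.79 ± 0.18, a difference that was not tested.

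The 24 enzymes that modify HSF1 moved both ways, with 11 higher, 8 lower and 5 not called, and a median of -0.03. The part called was close to the 78.4% called among all genes tested, of which 39.3% were higher and 39.1% lower. Under library totals the split was 9 higher and 13 lower. DYRK2, a kinase that phosphorylates HSF1, rose by 1.20 ± 0.08 (SE), as did CSNK2A2, a casein kinase subunit, by 1.07 ± 0.06. NEDD4, a ubiquitin ligase of HSF1, rose by 1.03 ± 0.06. HDAC1 fell by 1.30 ± 0.05, HDAC6 fell by 0.95 ± 0.05, and the mitotic kinase PLK1 fell by 0.94 ± 0.08. Of the 14 HSF1 cofactors, 6 rose, 5 fell and 3 were not called, with a median of 0.06, and under library totals 5 rose and 6 fell. The part of the cofactors called was likewise close to 78.4%. CCNT1, the cyclin of the elongation kinase, rose by 0.75 ± 0.06, whereas its kinase CDK9 fell by 0.33 ± 0.06. SSBP1, a single-stranded DNA binding protein of mitochondria, rose by 0.44 ± 0.06, and CSTF2, a cleavage factor, rose by 0.48 ± 0.06. RPA1 fell by 0.34 ± 0.05 and PARP1 fell by 0.30 ± 0.05.

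Among the 9 genes of HSF2 turnover and mitotic bookmarking, 4 rose and 3 fell, with a median of 0.03. This part called was close to the 78.4% called among all genes tested. The ubiquitin protease USP7 rose by 0.64 ± 0.05 (SE), the phosphatase subunit PPP2CA by 0.47 ± 0.06, and the anaphase-promoting complex genes CDC20 by 0.32 ± 0.06 and CDC27 by 0.23 ± 0.05. NCAPG, the condensin subunit, fell by 0.97 ± 0.05, FZR1 fell by 0.20 ± 0.07 and PPP2R1A fell by 0.14 ± 0.05. CUL3 (-0.01) and WDR5 (0.03) were not called. Under library totals 3 rose and 4 fell, and without the first Myrrh library 1 fell.

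Only 5 of 10 HSF4 target genes known from the lens were detected well enough to test, and they did not move as a group. CRYAB, the alpha-B crystallin, rose by 3.76 ± 0.17 (SE), and HSPB1 rose by 1.61 ± 0.09. Both are also among the HSF1 target genes listed. CRYGS, a gamma crystallin, fell by 1.87 ± 0.17, the beaded filament gene BFSP1 fell by 0.91 ± 0.16, and VIM fell by 0.44 ± 0.06. BFSP2, DNASE2B, CRYGB, CRYGC and CRYGD were at or near 0 in both groups. Of 7 other genes named after heat shock factors, HSF5, HSFX1, HSFX3 and HSFX4 were near 0 and not tested. HSF2BP, a germline protein that binds HSF2, rose to 2.77 ± 0.323 CPM in Myrrh, against 1.29 ± 0.281 CPM in DMSO. HSFX2 fell to 0.816 CPM in Myrrh, against 1.95 CPM in DMSO, and HSBP1L1 (-0.03) was not called.

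The 10 factors of other stress pathways gave 9 that rose, none that fell, and TFEB (-0.12), which was not called, with a median of 1.03. XBP1 of the unfolded protein response rose by 2.19 ± 0.06 (SE), the metal-responsive MTF1 by 1.41 ± 0.06, ATF6 by 1.30 ± 0.05 and NFE2L2, which drives antioxidant genes, by 1.29 ± 0.05. FOXO3 rose by 1.09 ± 0.06, ATF4 by 0.96 ± 0.06, NFKB1 by 0.80 ± 0.07 and HIF1A by 0.55 ± 0.06. The log2 fold change of HSF1, 0.65, thus lay between those of HIF1A and NFKB1.

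**Figure D5:**
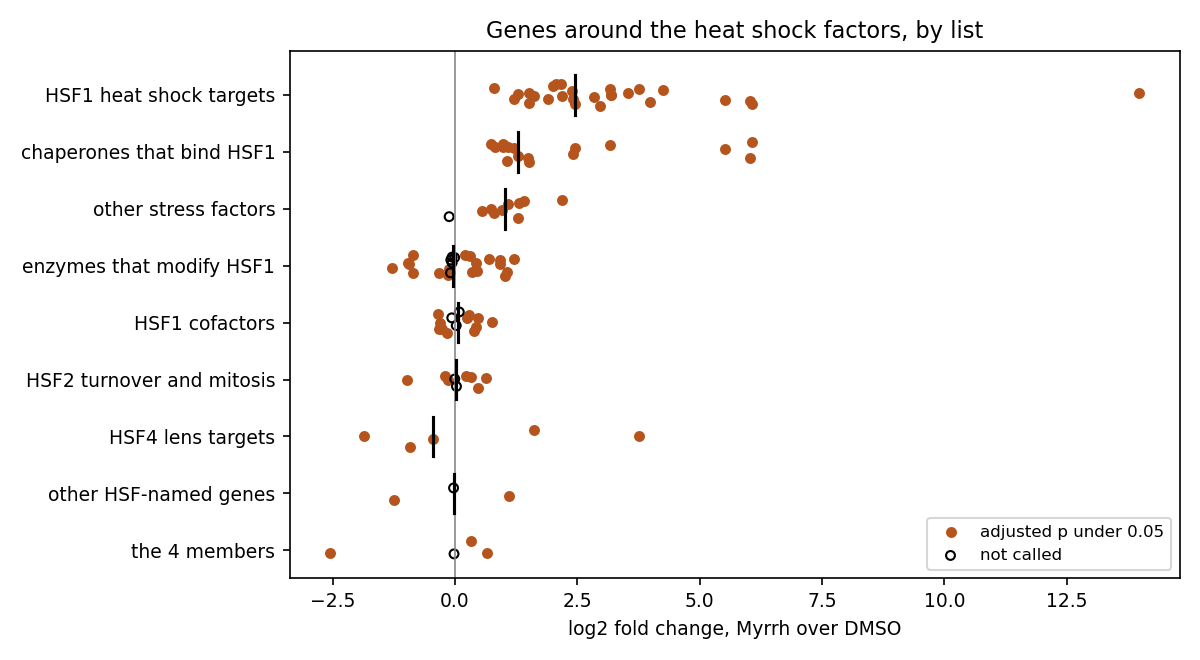
Log2 fold change (Myrrh over DMSO) of each tested gene in the 8 lists and of the 4 members, with filled points for an adjusted p under 0.05 in edgeR's quasi-likelihood test, open points for genes not called, and a bar at each list's median. The HSF1 targets and the chaperones that bind HSF1 all lie above 0, while the enzymes and cofactors lie on both sides of it.

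The genes whose profiles over the 6 libraries were most like each member were found by the root mean square distance between centred log2 CPM, over 11368 genes. For HSF1 they were MRPL2 (0.0195), POLDIP2 (0.0212) and PUF60 (0.0266). For HSF2 they were RSPRY1 (0.0132), CREB3L2 (0.0201) and VAPB (0.0211). HSF4 had more distant neighbours, MROH6 (0.0652), LINC00342 (0.0665) and TMEM107 (0.0676), and HSBP1 had SFPQ (0.0137), RPL35A (0.0218) and ATP6V0E1 (0.0231).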

How the data were processed

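RNA sequencing of total RNA (TruSeq libraries, per the labels' protocols) was analysed from 2 tables of 6 libraries. Reads were processed with STAR and RSEM 1.3.1 on GRCh38, per the submitters' processing notes. Of the annotation release, trimming and strand setting, none is given in the sources used here. The deposited estimated counts are not normalised, and 11.1% to 12.2% of values per library are not whole. The deposited log2 values are the authors' log2(TPM+1), converted back to TPM here.

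Counts were rounded, filtered (filterByExpr) and scaled by TMM, and tested with edgeR 4.0.16 (quasi-likelihood, R 4.3.3), with Benjamini-Hochberg adjustment over 16395 genes and a threshold of 0.05. The script was tested on simulated data. Alternatives used limma 3.58.1, DESeq2 1.42.0, other scalings and filters, a replicate block, and each library left out; sums of HSF4 with its neighbours were added after the data were seen. Intervals are model-based. Positions come from the GRCh38 annotation used here. Motifs were searched in RefSeq windows.

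The members and lists were chosen with earlier results of these data known. Named genes are the members, up to 3 called genes of highest and lowest change per list at a mean of 5 CPM or more, all members of lists of 10 or fewer, genes within 5 kb of a member, and the 3 most alike in profile. KIAA0895L, TMEM208 and the other genes within 100 kb of HSF4, and HSPA1L, were chosen after their values were seen. The value of 1 listed gene is not reported here.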

Additional observations from a re-analysis of the deposited data

How the results depend on the processing

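HSF1, HSF2 and HSF4 kept their direction and their call in every setting tried. HSBP1 did not: its log2 fold change was -0.16 without scaling factors and -0.15 with upper-quartile factors, both called (adjusted p 0.0123 and 0.0248), 0.0111 with no filter on low counts (0.896) and 0.17 by limma on log2(TPM+1) (0.0399). Leaving out 1 library at a time gave -0.0986 to 0.0295 for HSBP1. The log2 ratio of HSF2 to HSBP1 was 0.36 on estimated counts and between -0.0107 and 0.22 with 1 library left out. The cause was not tested. Library totals and upper-quartile factors moved the median of all genes to -0.16 and -0.14, and their calls were 41.8% and 42.8% higher, against 50.1%.

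BOP1, called at 0.50 by edgeR, was -0.0719 and not called by limma on log2(TPM+1) (adjusted p 0.344). Other named genes that changed sign were near 0 and not called in the main edgeR test. By limma HSBP1L1 was 0.139, SFPQ 0.0146 and RPL35A 0.0493. DGAT1 was -0.0676 under library totals, -0.0512 with upper-quartile factors and -0.0241 when 5 CPM in 3 libraries was required. In these 3 settings WDR5 was -0.113, -0.0973 and -0.0698. With no filter HSBP1L1 was 0.00112, CUL3 0.0266, SFPQ 0.00947, RPL35A 0.0292 and ATP6V0E1 0.0262. With 1 library left out the ranges were -0.171 to 0.0517 for HSBP1L1, -0.0617 to 0.0592 for CUL3, -0.0301 to 0.0800 for WDR5, -0.0906 to 0.0275 for SFPQ, -0.0767 to 0.0562 for RPL35A and -0.101 to 0.0581 for ATP6V0E1.

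Deviations from the group mean correlated at -0.060, -0.0045 and 0.036 between libraries with the same number. Between libraries with different numbers the correlations ran from -0.0928 to 0.102. With 3 libraries per group, these values cannot decide whether the numbers pair the samples. With the number as a replicate block, HSF1 was 0.65, HSF2 0.33 and HSF4 -2.56, and 12782 genes were called, against 12854 without it.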
